A study of Saccharomyces cerevisiae with 6 samples.

Results

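The genes described here encode enzymes of purine synthesis and salvage in budding yeast. They are 10 of the 5449 Saccharomyces cerevisiae genes measured: ADE1, ADE2, ADE4, ADE6, ADE8, ADE13 and ADE17 of the route to inosine monophosphate (IMP), IMD4 and GUA1 of the branch to guanine nucleotides, and the adenine deaminase gene AAH1. They were chosen by name, as probe sets annotated to exactly 1 S. cerevisiae gene, and each had 1 such probe set. All 10 lay above background on all 6 arrays, and none was on a probe set that the manufacturer marks as shared between related sequences.

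Purine nucleotides are built step by step on phosphoribosyl pyrophosphate (PRPP) until IMP is formed. IMP is then turned into AMP through Ade12 and Ade13, or into GMP through IMP dehydrogenase (the IMD genes) and the GMP synthase Gua1. Cells can also take up free bases and attach them to PRPP. Yeast turns adenine into hypoxanthine with the deaminase Aah1, so that external adenine can feed the GMP branch as well, and it switches most ADE genes on through the factors Bas1 and Pho2 when adenine is short.

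Both groups were cultures of the haploid strain BY4742, which carries deletions at HIS3, LEU2, LYS2 and URA3 and has a full set of ADE genes. The cultures grew in the rich medium YPD, a source of adenine, and received either 80 µM of clioquinol (CQ), a hydroxyquinoline that binds metal ions, or 1% of the solvent dimethyl sulfoxide (DMSO), for 5 h. Each group had 3 arrays, labelled as biological replicates. The DMSO content of the CQ cultures is not given in the labels, so solvent and drug effects cannot be told apart.

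Median intensities over all genes were 889.7 to 926 on the DMSO arrays and 977 to 1008 on the CQ arrays. Each value is relative to the other transcripts on its array, and a shift of all mRNA in a cell would not show. LYS2 and URA3 lay below background on every array, as did LEU2, while HIS3 read 732 to 1703; the his3 allele of this strain keeps part of the gene, so its probe set checks nothing. The end index, the mean log2 ratio of 3' over 5' control probe sets of 6 yeast genes and a sign of RNA integrity, was 0.96, 0.96 and 0.88 with DMSO and 1.30, 1.53 and 1.15 with CQ. The groups did not overlap (difference 0.40, exact two-sided permutation p = 0.1, the smallest that 3 against 3 arrays allow), and CQ replicate 2 was the highest. Fits with this index as a covariate therefore cannot tell the index and the treatment apart. They also depend on CQ replicate 2, so they are not independent of fits without that array.

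Among the 10 members, the GMP branch genes IMD4 and GUA1 and the salvage gene AAH1 fell with CQ. None of the 7 ADE members passed the test in either direction, though ADE1, ADE4 and ADE17 passed with the replicate number as a block. Other genes of the same steps did not all follow this split, as ADE16 rose and IMD2 did not pass. The test was limma's moderated fit on log2(intensity + 16), two-sided, with Benjamini-Hochberg adjustment over all 5449 genes and a threshold of 0.05; "rose" and "fell" are used only of genes that passed. Across all genes 68.0% passed, 36.1% higher and 31.9% lower with CQ. Against these shares, 3 of 10 members fell, which is near the background, and 0 of 10 rose. For these 3 members no CQ array reached into the DMSO range, and groups were apart in this way for 73.7% of all genes. A log2 difference is followed by its standard error, and a mean intensity by its standard deviation (n = 3).

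**Figure D1:**
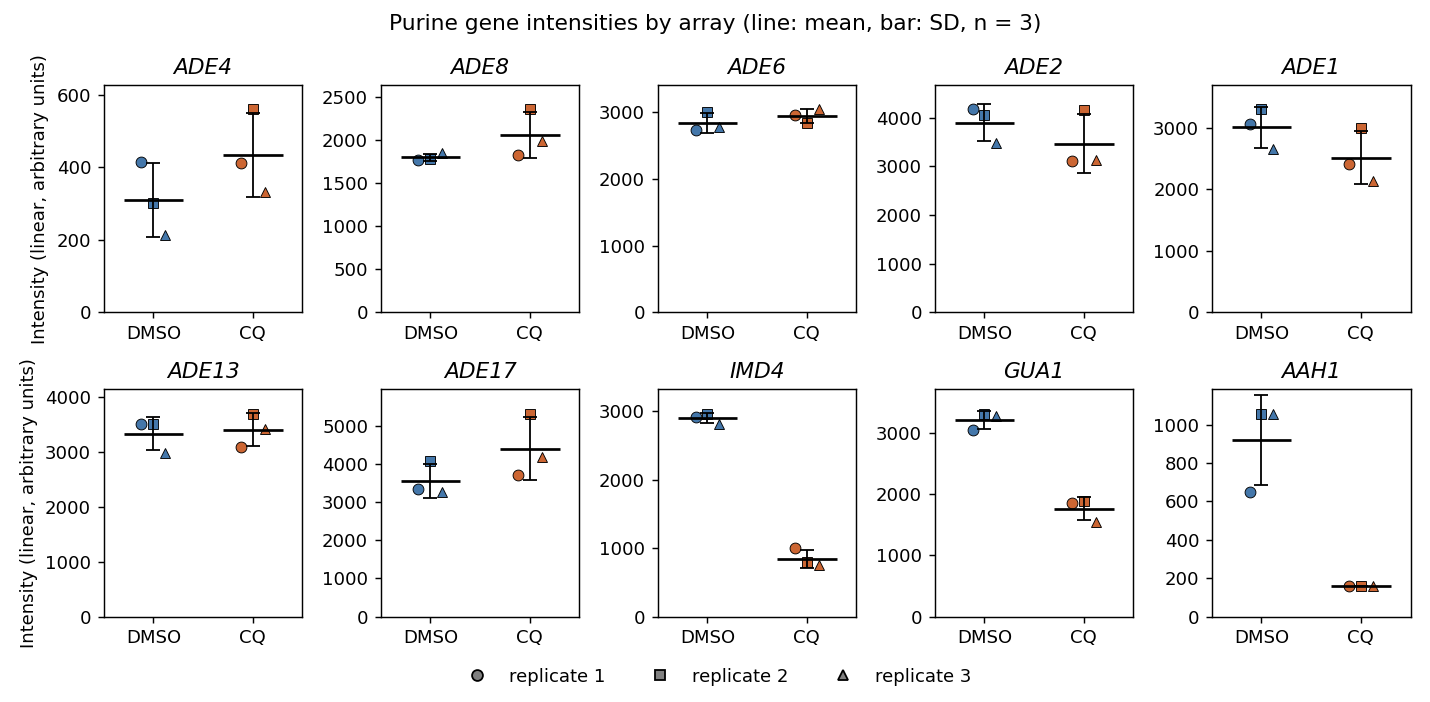
Linear intensity of each of the 10 members on the 3 DMSO arrays (blue) and the 3 CQ arrays (orange); marker shape gives the replicate number, the horizontal line the mean and the bar the SD (n = 3). The groups overlap for every ADE gene and are apart for IMD4, GUA1 and AAH1, with AAH1 between 157 and 160.4 on the CQ arrays.

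The measured genes of the first steps of IMP synthesis did not pass. ADE4, the PRPP amidotransferase that commits the pathway, read 415, 302 and 213 with DMSO and 411, 559.6 and 331 with CQ. It had the widest spread of the ADE members in both groups, with a standard deviation on the log2 scale of 0.46 with DMSO and 0.37 with CQ, and the groups overlapped. Its log2 difference was 0.48 ± 0.25 (limma adjusted p = 0.119). The 95% interval ran from -0.10 to 1.06, which includes both 0 and a 2-fold rise. Without DMSO replicate 1, the highest of its group, the difference was 0.71 and passed (limma adjusted p = 0.0328), and with the end index as a covariate it was -0.44.

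ADE8, which adds a formyl group from folate, read 1767, 1788 and 1849.9 with DMSO and 1833, 2362 and 1994 with CQ. The DMSO arrays lay close together, and CQ replicate 2 stood above the other CQ arrays. The log2 difference was 0.19 ± 0.10 (limma adjusted p = 0.137), against 0.085 without CQ replicate 2 and -0.068 with the end index as a covariate. ADE6, the enzyme of the next step, read 2732, 3012 and 2774 with DMSO and 2953, 2838 and 3046 with CQ. The groups lay over one another, with a log2 difference of 0.05 ± 0.08 and a 95% interval from -0.12 to 0.23.

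The genes of the middle steps had negative differences and did not pass either. ADE2, the carboxylase whose loss gives red colonies, read 4168, 4049 and 3469 with DMSO and 3098, 4161 and 3122 with CQ. CQ replicates 1 and 3 lay below every DMSO array, and CQ replicate 2 lay within the DMSO range. Its log2 difference was -0.18 ± 0.13 (limma adjusted p = 0.259), and without CQ replicate 2 it was -0.32 and passed (limma adjusted p = 0.0155). With the end index as a covariate it was -0.68 and passed (limma adjusted p = 0.00965). ADE1, which acts directly after ADE2, read 3063, 3296 and 2647 with DMSO and 2412, 2984 and 2138 with CQ. Here too CQ replicate 2 lay among the DMSO arrays and the other CQ arrays below them. Its difference was -0.26 ± 0.14 (limma adjusted p = 0.119), against -0.39 without CQ replicate 2 (limma adjusted p = 0.0112) and -0.82 with the end index as a covariate (limma adjusted p = 0.00282). For ADE2 and ADE1 alike these settings are not separate results, as CQ replicate 2 had the highest index.

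The members of the last steps to IMP and AMP, ADE13 and ADE17, had positive differences and did not pass. ADE13, the lyase that acts in IMP synthesis and again in AMP synthesis, read 3517, 3515 and 2986 with DMSO and 3097, 3704 and 3425 with CQ, a log2 difference of 0.03 ± 0.10. The groups lay within one another, and the sign of this small difference turned without CQ replicate 2 (-0.03) and without DMSO replicate 3 (-0.05). ADE17, 1 of a pair of paralogues for the closing transformylase and cyclohydrolase steps, read 3362, 4081 and 3264 with DMSO and 3721, 5331 and 4183 with CQ. The log2 difference was 0.30 ± 0.15 (limma adjusted p = 0.105), and without CQ replicate 1, the lowest of its group, it was 0.41 and passed (limma adjusted p = 0.0475). Without CQ replicate 2, the highest, the ADE17 difference was 0.15, and with the end index as a covariate it was -0.14, neither of which passed.

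Of the 7 ADE members 5 had a positive and the other two a negative difference, with a median of 0.05 beside 0.02 over all genes. At an unadjusted p under 0.05 the limma count among them was also 0. In the fit without covariates the 95% interval of 6 of the 7 lay within 1 on the log2 scale in both directions, the exception being ADE4. This leaves out a 2-fold change under that fit only. With the end index as a covariate, ADE1 (-0.82) and ADE2 (-0.68) passed, and intervals of that fit are not given. The plot of differences shows the intervals without covariates beside those of the members that fell.

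**Figure D2:**
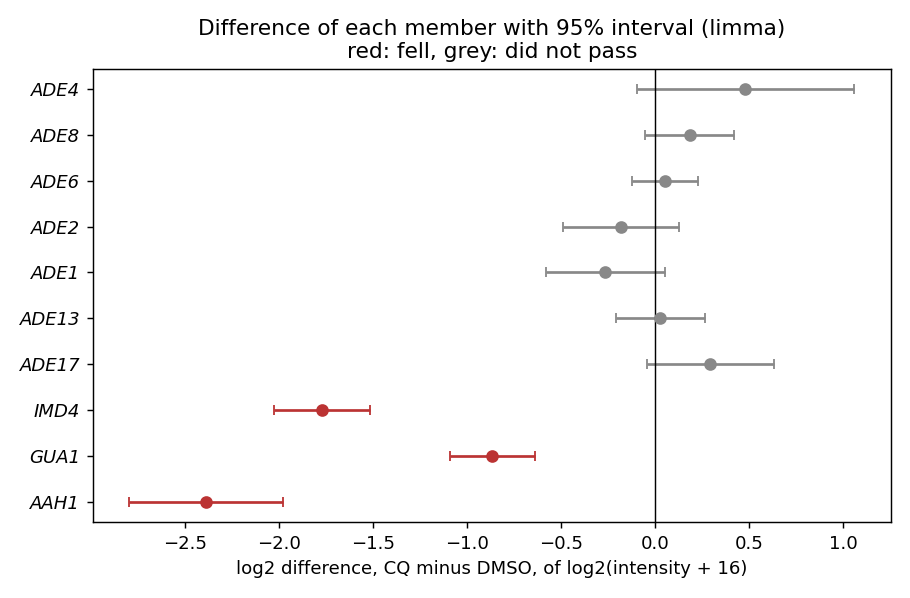
Log2 difference (CQ minus DMSO) of each member with its 95% interval from limma, in pathway order from ADE4 at the top to AAH1 at the bottom. The 7 ADE intervals include 0, and those of GUA1 (-0.86), IMD4 (-1.77) and AAH1 (-2.39) lie wholly below it.

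Other measured genes of IMP and AMP synthesis were ADE16 and ADE12. ADE16, the paralogue of ADE17, rose: it read 3548, 3603 and 3720.3 with DMSO and 4993, 4689.9 and 4941 with CQ, with no overlap and a log2 difference of 0.43 ± 0.07 (limma adjusted p = 0.000933). Its arrays agreed more closely than those of ADE17, and whether the paralogues differed in their response was not tested. ADE12, which starts the AMP branch, read 3887, 4397 and 4092 with DMSO and 3390.4, 4916 and 3456 with CQ. Its difference was -0.09 ± 0.15 (limma adjusted p = 0.59), and without CQ replicate 2 it was -0.27 and passed (limma adjusted p = 0.0157). With the end index as a covariate ADE12 stood at -0.63 and passed (limma adjusted p = 0.0226), which is not separate from the result without CQ replicate 2. ADE5,7 was not analysed here.

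The ADE members shared a pattern among the CQ arrays that the group comparison does not show. CQ replicate 2 was the highest of the 3 CQ arrays for 6 of the 7, ADE6 being the exception, against 34.0% of all genes. That array was also the lowest of the 3 for 2440 of all 5449 genes, and for 1 of the 7 ADE members. Averaged over the 7, the level relative to the DMSO mean was 0.30 on CQ replicate 2 on the log2 scale, and -0.02 on each of the other CQ arrays. On the DMSO arrays it was 0.07, 0.08 and -0.15. Over the 53 other genes of the pathway lists, that array was the highest for 45.3%. By list this ran from 6 of 6 histidine and 5 of 8 one-carbon genes, over 4 of 8 pyrimidine genes, to 0 of 4 transport genes and 0 of 4 regulators. For 3 of 4 transport genes and 3 of 4 regulators CQ replicate 2 was the lowest CQ array. MTD1, a one-carbon dehydrogenase named after its values were seen, read 3591 there against 1950.5 and 1885 on the other CQ arrays. That array also had the highest end index, 1.53, whose part in this pattern was not tested.

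**Figure D3:**
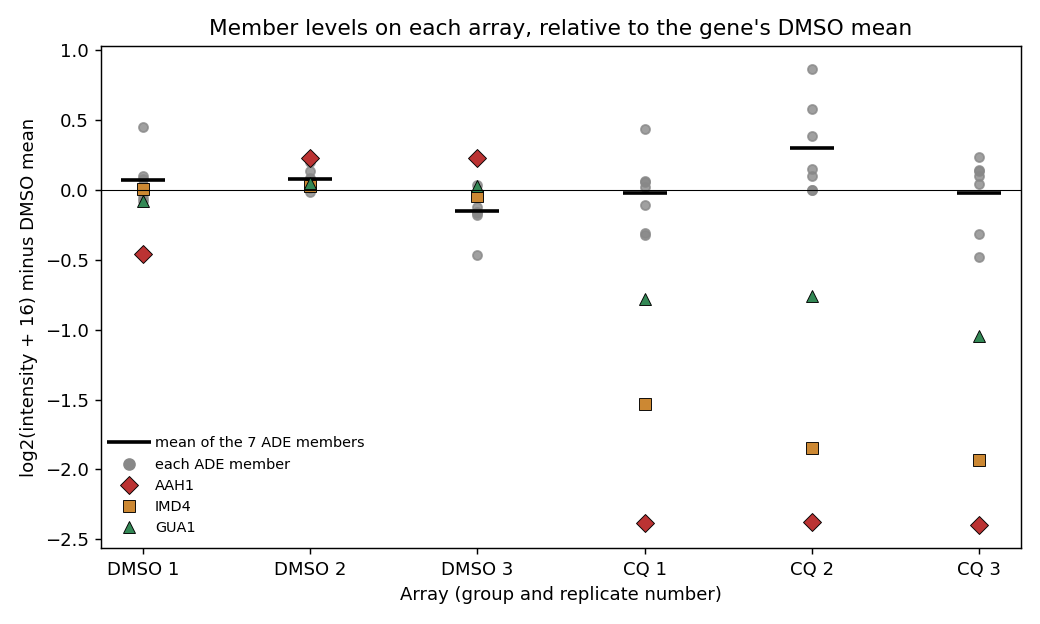
Level of each member on each array as log2(intensity + 16) minus the gene's DMSO mean; grey points are the 7 ADE members, black bars their mean, and coloured markers AAH1, IMD4 and GUA1. The ADE mean is highest on CQ replicate 2 (0.30), while AAH1 lies between -2.40 and -2.38 on all 3 CQ arrays.

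The GMP branch had genes that fell at both of its steps, 3 of the 4 measured, beside 31.9% lower over all genes. IMD4, an IMP dehydrogenase isoform, read 2921, 2969 and 2822 with DMSO and 996, 797 and 747 with CQ. Every CQ array lay far below every DMSO array, and the CQ mean was 29.2% of the DMSO mean. The log2 difference was -1.77 ± 0.11 (limma adjusted p = 6.27e-06). GUA1, the GMP synthase that follows it, read 3042, 3312 and 3266 with DMSO and 1855.5, 1884 and 1542 with CQ. These groups did not overlap either, and GUA1 differed by -0.86 ± 0.10 (limma adjusted p = 0.000108), with a CQ mean of 54.9% of the DMSO mean.

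Of the other IMP dehydrogenase genes 1 fell and 1 did not pass. IMD3 fell from 2814, 3168 and 2915 with DMSO to 2286, 2078 and 2043 with CQ, a log2 difference of -0.47 ± 0.08 (limma adjusted p = 0.00134). IMD2, the isoform known for its induction when guanine nucleotides run low, read 1766, 1833 and 1976 with DMSO and 2033, 2398 and 1765 with CQ. Its groups overlapped, at 0.14 ± 0.12 (limma adjusted p = 0.31). IMD2 was measured on a probe set marked as shared with related sequences, and since the IMD genes are close in sequence, signal of one can enter the value of another. Whether the paralogues differed in their response was not tested.

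AAH1 had the lowest log2 difference of the 10 members. It read 650.0, 1058 and 1057 with DMSO and 159.7, 160.4 and 157 with CQ. DMSO replicate 1 was well below the other DMSO arrays and still far above the CQ arrays, which were nearly identical. The standard deviation on the log2 scale was 0.40 with DMSO and 0.01 with CQ. The CQ mean was 17.3% of the DMSO mean, and the log2 difference was -2.39 ± 0.18 (limma adjusted p = 1.3e-05), the 34th lowest of the 5449 genes. The CQ values remained at least 3.44 times the background of their array. AAH1 and IMD4 were the 2 of 10 members that fell at least 2-fold, against 7.51% of all genes.

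The direct contrast of AAH1 with the other members used the log2 ratio of AAH1 to each of them on every array. The ratio to each of the 7 ADE members was lower on all CQ arrays than on any DMSO array. The fall of AAH1 itself enters every such ratio, so these are not separate results about the ADE genes. For what share of all genes the ratio is apart in this way was not counted. The ratio differed by -2.12 for ADE1, -2.21 for ADE2, -2.42 for ADE13, -2.44 for ADE6, -2.57 for ADE8, -2.68 for ADE17 and -2.87 for ADE4. These differences correspond to 4.35-fold for ADE1 and 7.30-fold for ADE4, on the scale with the pseudocount of 16. Each of these ratios, and that to GUA1 (-1.52), had an exact two-sided permutation p = 0.1 and 0.113 after adjustment over the 9 ratios; 0.1 is the smallest p this design allows, so none could pass.

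Against IMD4 the contrast was small. The ratio of AAH1 to IMD4 differed by -0.62, and the groups overlapped because of DMSO replicate 1 (exact permutation p = 0.2, and 0.2 adjusted over the 9 ratios). DMSO replicate 1, at -0.468, lay just below CQ replicate 3, at -0.465. The pseudocount moved this value: with a pseudocount of 1 the difference was -0.70 (exact permutation p = 0.1 after adjustment, the smallest possible), and with 64 it was -0.40 (exact permutation p = 0.3 after adjustment). Whether AAH1 and IMD4 fell by different amounts was therefore not shown.

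Other salvage and breakdown genes went both ways. Of 11 measured, AAH1 included, 5 rose, 3 fell and 3 did not pass, with a median of 0.09. Over all genes 36.1% were higher and 31.9% lower, so these counts are near the background. APT1, which attaches adenine to PRPP and so competes with Aah1 for its substrate, read 1405, 1582 and 1251 with DMSO and 893, 889 and 717 with CQ. It fell by 0.75 on the log2 scale, to 59.0% of the DMSO mean (limma adjusted p = 0.000776). HPT1, which uses hypoxanthine, the product of Aah1, and guanine, read 724, 627 and 416 with DMSO and 647, 671 and 531 with CQ, with a difference of 0.09 ± 0.19 (limma adjusted p = 0.691).

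PHM8, a nucleotidase that breaks down nucleotide monophosphates under starvation, had the largest rise of the list, from 457 ± 52.5 to 949 ± 80.2 (log2 difference 1.03 ± 0.10, limma adjusted p = 6.09e-05). The adenosine kinase gene ADO1 fell by 0.57 and the APT1 paralogue APT2 rose by 0.67. The remaining genes of this list that rose, all named after their values were seen, were AMD1 (AMP deaminase, 0.49), GUD1 (guanine deaminase, 0.41) and ISN1 (IMP nucleotidase, 0.25). With arrays centred on their median these 3 did not pass, leaving 2 that rose. With quantile normalization GUD1 (limma adjusted p = 0.0677) and ISN1 (limma adjusted p = 0.0595) did not pass, leaving 3 that rose. ISN1 also did not pass with centring on the 75th percentile (limma adjusted p = 0.0615) or with the end index as a covariate (limma adjusted p = 0.276). Each of the 3 lost its call without at least 1 array. The adjusted p reached 0.0716 for AMD1 without CQ replicate 1, 0.0615 without CQ replicate 3 and 0.0631 without DMSO replicate 2. It was 0.0523 for GUD1 without DMSO replicate 1 and 0.0651 without DMSO replicate 2, and for ISN1 0.0614 and 0.0832 without the same arrays.

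**Figure D4:**
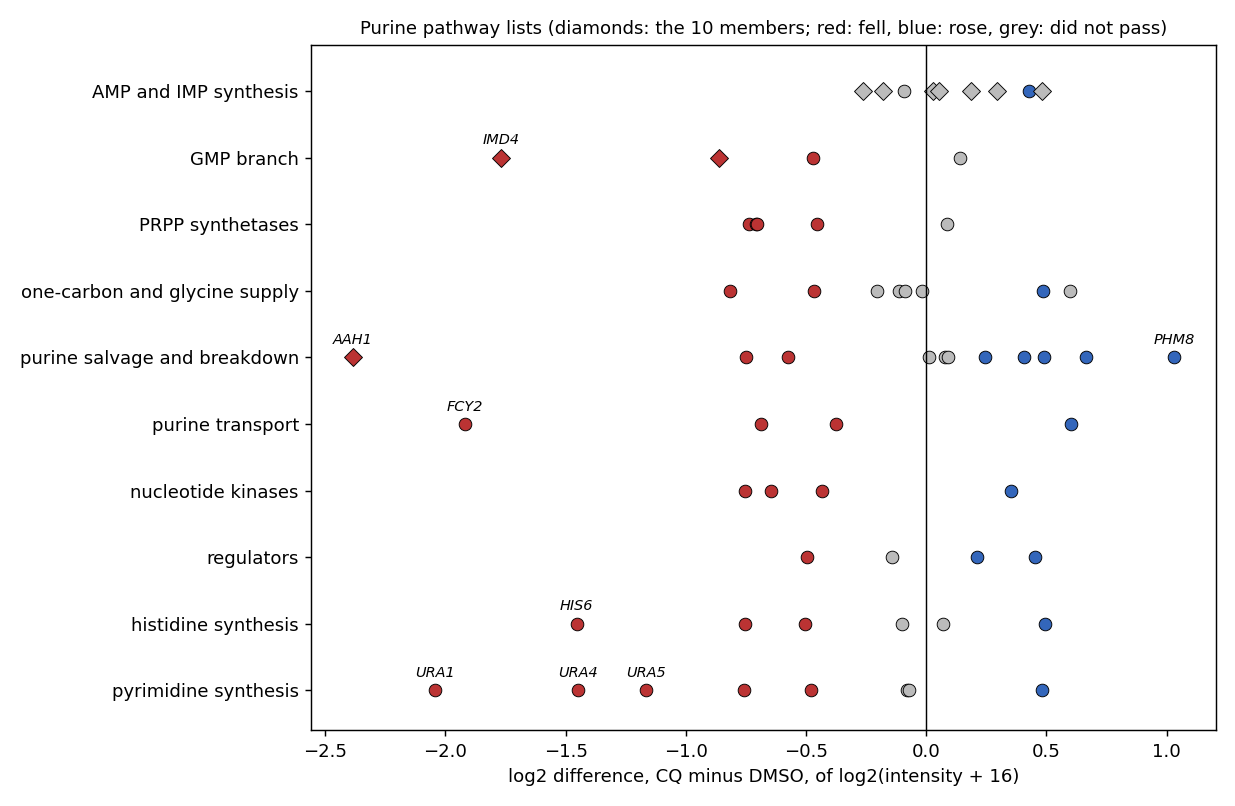
Log2 difference (CQ minus DMSO) of the measured genes of each pathway list; diamonds are the 10 members, red genes fell, blue genes rose and grey genes did not pass. The IMP and AMP list lies between -0.26 and 0.48, and the lowest genes are AAH1 (-2.39), URA1 (-2.04), FCY2 (-1.92) and IMD4 (-1.77).

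The main gene for uptake of bases fell, and uptake itself was not measured. FCY2, the plasma membrane permease for adenine, guanine, hypoxanthine and cytosine, read 3961, 3688 and 3071 with DMSO and 999.8, 841 and 951 with CQ. The groups were far apart, and FCY2 differed by -1.92 ± 0.11 (limma adjusted p = 5.16e-06), with a CQ mean of 26.0% of the DMSO mean. Of the 4 transport genes 3 fell and 1 rose, beside 31.9% lower and 36.1% higher over all genes. The FCY2 relative FCY22 had a log2 difference of -0.69 ± 0.15 (limma adjusted p = 0.00374). With the end index as a covariate it stood at -0.29 and did not pass, and 1 of the 4 transport genes fell. FUN26, a nucleoside carrier of the vacuole membrane, rose by 0.60 ± 0.11 (limma adjusted p = 0.00179).

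Genes that supply PRPP and genes that phosphorylate the products formed separate lists, each to be read beside 31.9% lower and 36.1% higher over all genes. Of the 5 PRPP synthetase genes 4 fell, led by PRS5 (-0.74 ± 0.09), PRS2 (-0.71 ± 0.09) and PRS4 (-0.70 ± 0.08), and PRS1 did not pass (0.09). With the end index as a covariate 3 of them fell, since PRS3 went from -0.45 to -0.19 and did not pass (limma adjusted p = 0.399). Of 4 nucleotide kinase genes 3 fell: the adenylate kinases ADK2 (-0.76) and ADK1 (-0.65), and the guanylate kinase GUK1 (-0.43). YNK1, which makes nucleoside triphosphates, was the gene that rose there, by 0.35; with the end index as a covariate it did not pass (0.31, adjusted p = 0.0995).

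One-carbon and glycine genes, which provide formyl groups and glycine to the purine ring, were measured for 8 genes. Of these, 2 fell, 1 rose and 5 did not pass, with a median of -0.10 beside 0.02 over all genes. The shares over all genes were 31.9% lower and 36.1% higher. The folate enzyme genes MIS1, of mitochondria, and ADE3, of the cytosol, fell, with log2 differences of -0.82 and -0.47. GCV2, of the glycine cleavage system, rose by 0.49 ± 0.15 (limma adjusted p = 0.0223). GCV2 did not pass without DMSO replicate 1 (adjusted p = 0.0715) or DMSO replicate 3 (adjusted p = 0.08), nor with arrays centred on their median (0.35), and it stood at -0.05 with the end index as a covariate. With arrays centred on their median 4 of the 8 genes fell and 0 rose, as SHM1 (-0.34) and GCV3 (-0.25) then passed.

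Of the 4 regulators 2 rose, 1 fell and 1 did not pass, beside 36.1% higher and 31.9% lower over all genes. BAS1 read 351, 381 and 346 with DMSO and 442, 389 and 423 with CQ, a log2 difference of 0.21 ± 0.08 at the threshold (limma adjusted p = 0.0494). Leaving out CQ replicate 1 or 3 or any DMSO array gave adjusted p values of 0.064 to 0.155, and with CQ replicate 2 left out it still passed. BAS1 did not pass with arrays centred on their median (0.07) or with the end index as a covariate (0.32). Nor did it pass with quantile normalization (0.13), centring on the 75th percentile (0.15) or a pseudocount of 64 (0.19). Both alternative variance models and the replicate number as a block also took its call away. PHO2 differed by -0.14 ± 0.11 (limma adjusted p = 0.292), and by -0.26 without CQ replicate 3, where it passed (adjusted p = 0.033). GCN4, the activator of amino acid synthesis that also acts on some ADE genes, fell by 0.50. SAF1, the F-box protein that directs Aah1 for degradation when growth stops, rose by 0.45 ± 0.10 (limma adjusted p = 0.00487), opposite to AAH1.

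The neighbouring pathways that also draw on PRPP were lower in several steps. Of 6 histidine genes 3 fell, 1 rose and 2 did not pass, with HIS6 at -1.45 ± 0.10, HIS4 at -0.75 ± 0.08 and HIS7, whose enzyme releases the purine precursor AICAR, at -0.50 ± 0.12. With the end index as a covariate 4 histidine genes fell and 0 rose: HIS1 went from 0.49 to 0.20 and did not pass (limma adjusted p = 0.421), and HIS5 passed at -0.46 (limma adjusted p = 0.0352). Of 8 pyrimidine genes 5 fell, 1 rose and 2 did not pass, with a median of -0.62. URA1, dihydroorotate dehydrogenase, read 9342, 9645 and 9262 with DMSO and 2440.4, 2701 and 1773 with CQ, a log2 difference of -2.04 ± 0.15 (limma adjusted p = 1.11e-05). URA4 and URA5, the steps on either side of it, had log2 differences of -1.45 and -1.16. BY4742 lacks working HIS3 and URA3, so both groups have these routes interrupted alike. Over all pathway lists 13 of 63 measured genes rose and 27 fell, beside 36.1% higher and 31.9% lower over all genes. The lists were taken from general knowledge of the pathway, and no set test was made.

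The genes with the values most like AAH1 over the 6 arrays were found by the root mean square distance of centred log2 values, among 5439 genes that are not members. The nearest were ELP3 (0.14), PLB2 (0.16), NOC4 (0.17), NOG1 (0.18) and PHO3 (0.18). ELP3, the catalytic subunit of the Elongator complex, read 676, 963 and 943 with DMSO and 192, 153 and 156 with CQ. Its lower value on DMSO replicate 1 is part of the pattern by which it was chosen. PLB2 encodes a phospholipase, NOC4 and NOG1 ribosome assembly factors, and PHO3 an acid phosphatase. Nearest to the mean of the 7 ADE members were CIA2, IMG2, MIC12, HIS2 and MRM1, at distances of 0.03 to 0.05, and their log2 differences ran from 0.00 to 0.10.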

How the data were processed

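Biotin-labelled cRNA was hybridised to Affymetrix arrays, per the labels' protocols. The values are linear intensities as the authors deposited them, with 1 value for a probe set on each array. The sources used here do not give the software, the background correction or any scaling between arrays. The annotation paired 5498 of 10928 probe sets with 1 S. cerevisiae gene and 1746 with fission yeast genes. For 47 genes with several probe sets the brightest was used. Values were analysed as log2(intensity + 16), which understates changes of dim genes. The background of an array was the intensity that 95% of its fission yeast probe sets did not exceed. Fits used limma 3.58.1 in R 4.3.3, tested on simulated data. Permutation tests were exact (scipy 1.17.1), and plots used matplotlib 3.10.9. The number of arrays limits the precision.

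The members and lists were chosen with earlier results of these data known. The text names the members, 10 further pathway genes and the 4 strain markers whatever their values, the 3 genes of each list with the largest change that passed, and the 5 genes nearest to AAH1 and to the ADE mean; other genes (MTD1, ADO1, APT2, AMD1, GUD1, ISN1, PRS1, PRS3, SHM1, GCV3, HIS1, HIS5 and YNK1) were named after their values were seen. Alternatives covered normalization, pseudocounts of 1 and 64, dim-gene filters, probe sets, variance models, the replicate number as a block, the end index as a covariate, and leaving out each array. Those for the pathway lists, median centring apart, were chosen after seeing the data.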

Additional observations from a re-analysis of the deposited data

How the results depend on the processing

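AAH1 (log2 difference -2.62 to -2.11 over 17 alternatives), IMD4 (-1.90 to -1.69 over 18) and GUA1 (-1.12 to -0.77 over 18) fell and passed in each. The filter that left out the dimmest 40% of genes removed AAH1 and ADE4, and over all genes its count passed was 2267 (1184 higher, 1083 lower) in place of 3708, since fewer genes were tested. With the end index as a covariate 5 members passed, with ADE1 at -0.82 and ADE2 at -0.68; ADE4 (-0.44), ADE17 (-0.14), ADE8 (-0.068) and ADE13 (-0.17) turned negative without passing, and the cause was not tested. Centring arrays on their median moved the median of all genes from 0.02 to -0.11 and the split from 1969 higher and 1739 lower to 1578 and 2211; ADE1 then passed at -0.40, and ADE6 (-0.082) and ADE13 (-0.11) turned negative, as they did with the 75th percentile (-0.0064 and -0.030). Under either of these settings, median centring or the index, 8 genes of the pathway lists rose in place of 13. With the replicate number as a block 6 members passed, ADE1 (-0.26), ADE4 (0.48) and ADE17 (0.30) being added. Same-numbered arrays deviated together with correlations of 0.05, 0.12 and 0.14, 1 of them under 0.1, and each array correlated best with its own number. The labels do not state a pairing and these small correlations do not settle it, so the main fit used no block. Leaving out 1 array at a time, 3 to 5 members passed (5 without CQ replicate 2), and the differences ran from -0.39 to -0.16 for ADE1, -0.32 to -0.11 for ADE2, 0.25 to 0.71 for ADE4, 0.085 to 0.27 for ADE8, 0.15 to 0.41 for ADE17 and -0.048 to 0.097 for ADE13. The ratio of AAH1 to every other member kept its sign in each alternative run on it (the pseudocounts and leaving out each array).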
